A study of Mus musculus with 3 samples.

Results

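The miR-30 family was examined in mouse liver as 9 mature microRNAs, 5 from the 5p arms of its hairpins and 4 from the 3p arms. They were taken by name from count tables that list 1908 mature microRNAs, with no threshold on their levels. The 5p members were mmu-miR-30a-5p, mmu-miR-30b-5p, mmu-miR-30c-5p, mmu-miR-30d-5p and mmu-miR-30e-5p, and the 3p members were mmu-miR-30a-3p, mmu-miR-30b-3p, mmu-miR-30d-3p and mmu-miR-30e-3p, written from here on without the species prefix. All 9 had reads in every library. The livers came from male C57BL/6J mice, an inbred strain, aged 8 to 10 weeks, and each group gave 1 small RNA library. Sham mice had a laparotomy without clamping and were kept for as long as the clamp stayed on in the other groups. In the WI (warm ischemia) group the vessels and bile duct to the left and median lobes were clamped and the liver was taken without reflow. In the IR (ischemia followed by reperfusion) group the same clamp was released and blood returned for a set time. The IR livers thus had a longer interval between operation and sampling, and that time cannot be told apart from reperfusion itself. All groups were fasted and anesthetized. It was not stated if a library pooled mice, or which lobe was sampled.

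A microRNA hairpin is cut by Drosha and Dicer into a short duplex, and as a rule the strand on 1 arm, the guide, is loaded into Argonaute while the other, the passenger, is degraded. The guide represses messenger RNAs that pair with its seed, bases 2 to 8 from its 5′ end. The miR-30 family is abundant in epithelial tissues including liver, its guides are the 5p arms, and it is known for holding back epithelial-to-mesenchymal transition and for targets in autophagy. Both arms come from the same hairpin, and the ratio of 3p to 5p reads within a library does not depend on scaling between libraries. Whether that ratio follows transcription of the hairpin, the loss of either arm or the mix of cells was not tested.

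The 6 hairpins that give these microRNAs lie at 3 places in the genome (NCBIM37, which is mm9). Mir30a (23279108 to 23279178) and Mir30c-2 (23298540 to 23298623) lie on the plus strand of chromosome 1, 19361 bases apart and outside other annotated genes. Mir30c-1 (120442139 to 120442227) and Mir30e (120445211 to 120445302) lie on the minus strand of chromosome 4, 2983 bases apart, within introns of Nfyc, which encodes a subunit of the transcription factor NF-Y. Mir30b (68168977 to 68169072) and Mir30d (68172770 to 68172851) lie on the minus strand of chromosome 15, 3697 bases apart and outside other annotated genes. The sequence of miR-30c-5p is shared by the hairpins on chromosomes 1 and 4, so its reads cannot be assigned to either place.

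The mature sequences below are shown because the seed sets which messages an arm can pair with, and because near-identity between members limits how reads can be assigned. RefSeq (GRCm38.p6) held 5 of the 9 members, and the seed is in capitals. MiR-30b-5p, miR-30d-5p, miR-30b-3p and miR-30d-3p are named only.
miR-30a-5p: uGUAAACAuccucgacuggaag
miR-30e-5p: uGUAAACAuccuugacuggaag
miR-30c-5p: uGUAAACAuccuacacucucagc
miR-30a-3p: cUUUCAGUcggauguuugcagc
miR-30e-3p: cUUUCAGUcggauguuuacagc
The 5p arms shown share the seed GUAAACA, and the 3p arms of miR-30a and miR-30e share UUUCAGU. Counted from the 5′ end, miR-30a-5p and miR-30e-5p differ by C13U alone, and miR-30a-3p and miR-30e-3p by G18A alone. A read with a sequencing error at such a base can be counted under the wrong name, so the split between miR-30a and miR-30e is less certain than their sum. MiR-30c-5p differs from miR-30a-5p at 5 of the 22 bases compared. One other microRNA of the RefSeq table, miR-384-5p, carries the seed GUAAACA, and it had 0 reads in each library, a count that allows at most 0.758 CPM for Sham, 0.617 for WI and 0.785 for IR. CPM stands for counts scaled to a common library total.

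The positions of the arms are seen in the hairpins of Mir30a and Mir30e, where both mature arms are in capitals and the loop and stem ends in lower case.
Mir30a: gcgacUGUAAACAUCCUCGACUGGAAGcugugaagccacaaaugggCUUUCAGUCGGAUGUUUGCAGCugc
Mir30e: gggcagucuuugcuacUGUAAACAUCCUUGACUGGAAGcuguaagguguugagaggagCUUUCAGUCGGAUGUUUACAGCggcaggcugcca

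Sham yielded 3844133 microRNA reads, WI 5064014 and IR 3784539. In the study's read statistics a smaller part of the clean small RNA reads aligned to the genome in IR than in Sham or WI. All calls of miR-30 members below are in comparisons with that IR library, where such a library difference cannot be told apart from reperfusion. Levels are CPM after TMM scaling, and with 1 library a group every interval, SE and p-value covers counting error only and compares libraries, not conditions, so no difference here has a replicate check. The 4 hepatocyte markers (miR-122-5p, miR-192-5p, miR-194-5p and miR-148a-3p) were present in every library and their levels added up to 340889 CPM (Sham), 368042 CPM (WI) and 321731 CPM (IR). Of the other cell types checked, 4 of 4 erythroid microRNAs were called higher in IR than in Sham, with sums of 5055 CPM (Sham), 4781 CPM (WI) and 9020 CPM (IR). The 3 muscle microRNAs summed to 6.82, 23.8 and 75.1 CPM, 2 of them at 0 in some library and miR-133a-3p was called in every comparison. Of 5 leukocyte microRNAs, only miR-223-3p was called, higher in IR, while the list summed to 3094, 3054 and 2806 CPM. The 2 endothelial and 5 stromal microRNAs gave no call in any comparison. Their sums were lowest in IR (17568 and 35224 CPM against 19267 and 39670 in Sham, and 22783 and 43072 in WI). Those sums mostly followed their most abundant members, miR-126a-5p and miR-143-3p. MiR-145a-5p and miR-199a-3p were also lowest in IR, while miR-126a-3p, miR-199a-5p and miR-214-3p were highest there. The 5 biliary epithelial microRNAs summed to 486, 475 and 491 CPM, with miR-200c-3p called higher in IR than in WI. The part of these cell types in the differences below was not tested, and in whole liver fewer cells of a type and less RNA per cell cannot be told apart.

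The first question was how much of the liver microRNA pool the family made up and which members carried it. The 9 members held 7.72% of the Sham library, 7.96% of the WI library and 7.72% of the IR library. Nearly all of these were 5p reads, and the 3p members made up 1.90%, 1.91% and 1.83% of the family's reads. MiR-30a-5p alone took 5.12% of the Sham library, 5.31% of WI and 4.94% of IR, and ranked 4 among all microRNAs in each.

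Among the 5p arms, which act as guides, the level of miR-30a-5p was 49749 CPM for Sham (95% Poisson interval 49529 to 49969), 55281 for WI and 48857 for IR. MiR-30d-5p followed at 10896 CPM (Sham), 10670 CPM (WI) and 11021 CPM (IR). MiR-30e-5p had 7492, 9177 and 8619 CPM in the same order. MiR-30a-5p was thus highest in WI, miR-30d-5p lay within a narrow range, and miR-30e-5p was lowest in Sham. MiR-30c-5p, made from hairpins at both Mir30c loci, reached 4467 CPM (Sham), 5186 CPM (WI) and 5485 CPM (IR). MiR-30b-5p was the scarcest guide, at 887 CPM (Sham), 1006 CPM (WI) and 1029 CPM (IR). Both were lowest in Sham and highest in IR. For miR-30b-5p, though, the Poisson intervals of WI (978 to 1035 CPM) and IR (997 to 1062 CPM) overlapped.

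The 3p arms spanned a wider range. MiR-30a-3p reached 955 CPM for Sham (3781 reads), 1020 in WI (4960 reads) and 934 in IR (3572 reads). MiR-30e-3p reached 376 CPM for Sham (1488 reads), 460 in WI (2236 reads) and 409 in IR (1565 reads). Both were highest in WI, and for miR-30e-3p the Poisson intervals of Sham (357 to 395 CPM) and WI (441 to 479 CPM) did not overlap. MiR-30d-3p reached 79.5 CPM for Sham (315 reads), 95 in WI (462 reads) and 51.3 in IR (196 reads). MiR-30b-3p reached 14.1 CPM for Sham (56 reads), 11.9 in WI (58 reads) and 4.97 in IR (19 reads). For both arms from chromosome 15 the IR library was the lowest, and its Poisson interval (44.3 to 59.0 CPM for miR-30d-3p and 2.99 to 7.76 for miR-30b-3p) did not overlap that of Sham (71.0 to 88.8 and 10.7 to 18.4) or WI (86.5 to 104 and 9.05 to 15.4).

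**Figure D1:**
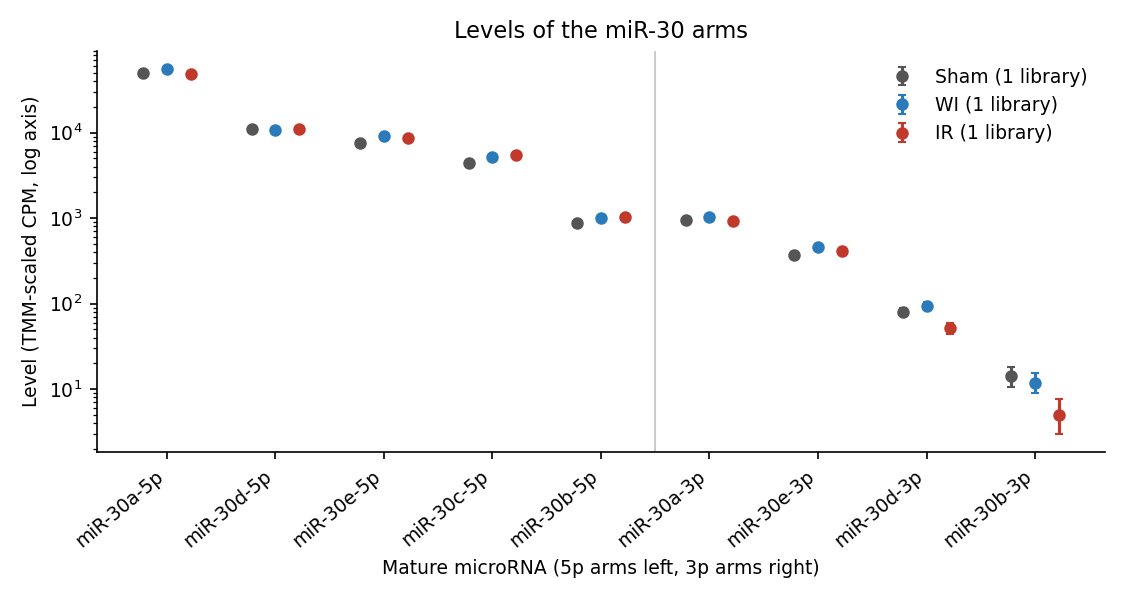
Level of each miR-30 arm (y axis, TMM-scaled CPM on a log axis) in the Sham, WI and IR libraries, with 5p arms on the left and 3p arms on the right of the grey line. Points are single libraries and bars are 95% Poisson intervals of the reads. MiR-30a-5p lies between 48857 and 55281 CPM, and the red IR points of miR-30d-3p (51.3 CPM) and miR-30b-3p (4.97 CPM) sit below those of Sham and WI.

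The order of levels was almost the same in the 3 libraries. It ran from miR-30a-5p through miR-30d-5p, miR-30e-5p and miR-30c-5p to miR-30a-3p and miR-30b-5p, and then to miR-30e-3p, miR-30d-3p and miR-30b-3p. Only miR-30a-3p and miR-30b-5p exchanged places, with the 3p arm 1.08 times higher in Sham and the 5p arm 1.10 times higher in IR. In WI their counting intervals overlapped, and they were the only neighbours in the order to do so in any library. The mature sequences at hand are 22 or 23 bases long, so no length correction was made, although the study's reads covered a range of lengths. The efficiency of adapter ligation to each sequence was not measured.

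Ischemia alone was then compared with sham operation. No miR-30 member was called in WI against Sham, where a call required a fold change above 1.5 and a Fisher's exact p under 0.01, and 1.92% of 782 tested microRNAs were called. Without a fold threshold, that p is passed by small differences in microRNAs with many reads. MiR-30d-5p, with 43150 reads in Sham and 51911 in WI, had a Fisher's exact p = 0.00123 at a log2 fold change of -0.03. The share of all tested microRNAs under that p was not counted, so passing it is not read as a result about the members. With an assumed coefficient of variation of 0.1 between animals none of the 9 passed (edgeR's exact test, p from 0.153 for miR-30e-5p to 0.883 for miR-30d-5p). The largest difference among the 9 members was that of miR-30e-5p, with a log2 fold change of 0.29 (SE 0.01). It was close to 0.29 (SE 0.05) for the 3p arm of the same hairpin. Among the 5p members miR-30c-5p followed with 0.22 (SE 0.01), and miR-30d-5p was on the other side with -0.03 (SE 0.0094). The median log2 fold change was 0.18 over the 5p members and 0.17 over the 3p members, beside 0.05 over all tested microRNAs. The summed 5p arms had a log2 fold change of 0.15 (95% interval 0.14 to 0.15) and the summed 3p arms one of 0.16 (0.11 to 0.20). Differences of this size moved with the scaling, and with library totals in place of TMM the sums gave 0.045 and 0.055.

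Reperfusion after ischemia was compared with ischemia alone. MiR-30d-3p and miR-30b-3p fell, and none of the other 7 members was called, beside 9.25% of 789 tested microRNAs called in either direction and 3.04% called lower. MiR-30b-3p had a log2 fold change of -1.25 (SE 0.37, Fisher's exact p = 0.000521, adjusted over all tested microRNAs p = 0.00343). MiR-30d-3p had a log2 fold change of -0.89 (SE 0.12, Fisher's exact p = 7.91e-14, adjusted p = 1.01e-12). The guides from the same hairpins gave 0.03 (SE 0.03) for miR-30b-5p and 0.05 (SE 0.0095) for miR-30d-5p. On the other hairpins, miR-30a-3p (-0.13, SE 0.03) and miR-30e-3p (-0.17, SE 0.05) stayed near their guides miR-30a-5p (-0.18, SE 0.0043) and miR-30e-5p (-0.09, SE 0.01) on the log2 scale. The median over the 4 3p members was -0.53 and over the 5 5p members 0.03, beside -0.01 over all tested microRNAs. These medians give each member the same weight, whatever its reads. The summed 5p arms had a log2 fold change of -0.12 (SE 0.0035) and the summed 3p arms one of -0.18 (SE 0.03). Most 5p reads came from miR-30a-5p, and most 3p reads from miR-30a and miR-30e. The 3p arms as a sum thus fell only slightly more than the guides. With an assumed coefficient of variation of 0.2 between animals the falls of miR-30b-3p and miR-30d-3p did not pass (edgeR's exact test, p = 0.0288 for miR-30b-3p and 0.0393 for miR-30d-3p). With all libraries thinned to equal depth miR-30b-3p did not pass either (-0.97, Fisher's exact p = 0.0151).

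The same 3p arms were the members called between IR and Sham, a comparison that shares the IR library with the one above. Calls were made for 7.11% of 774 tested microRNAs in either direction and for 1.42% in the lower direction. MiR-30d-3p had a log2 fold change of -0.63 (SE 0.13, Fisher's exact p = 1.05e-06, adjusted p = 1.11e-05), a fold of 1.55 that lay close to the threshold of 1.5. MiR-30b-3p had one of -1.49 (SE 0.38) from 56 and 19 reads. No 5p member was called. The highest 5p values were 0.30 (SE 0.01) for miR-30c-5p, 0.22 (SE 0.03) for miR-30b-5p and 0.20 (SE 0.01) for miR-30e-5p, while miR-30a-5p (-0.03, SE 0.0047) and miR-30d-5p (0.02, SE 0.0099) lay near 0. The summed 5p arms had a log2 fold change of 0.03 (95% interval 0.02 to 0.04) and the summed 3p arms one of -0.03 (-0.08 to 0.03), with most 3p reads from miR-30a and miR-30e. The direction of the 5p sum depended on the scaling, with -0.035 after removal of the 10 most abundant microRNAs and -0.14 with genome-aligned totals. With an assumed coefficient of variation of 0.2 the fall of miR-30d-3p did not pass (edgeR's exact test, p = 0.142), and with 0.4 neither did that of miR-30b-3p (p = 0.110).

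**Figure D2:**
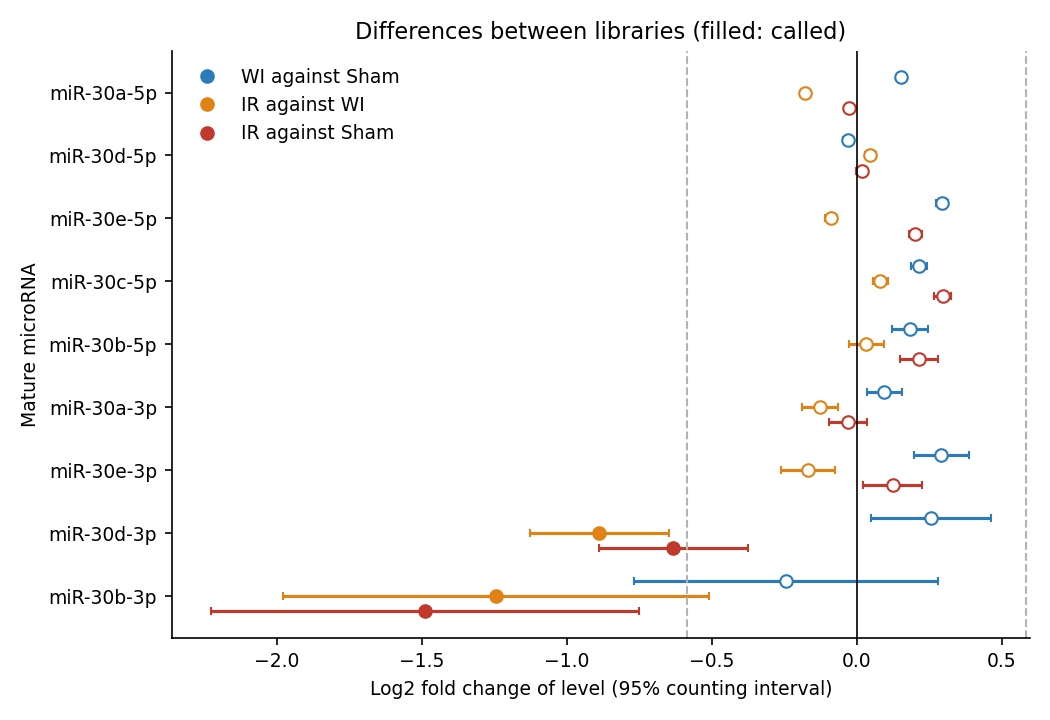
Log2 fold change of level (x axis) of each miR-30 arm (y axis) in the 3 comparisons, on log2(CPM + 0.1). Bars are 95% counting intervals, filled points were called, and dashed lines mark a fold of 1.5. The filled points all belong to miR-30d-3p (-0.89 and -0.63) and miR-30b-3p (-1.25 and -1.49), and the 5p arms lie between -0.18 and 0.30.

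The arms of each hairpin were next set against each other within libraries, which needs no scaling. Of the miR-30b reads on both arms, the 3p arm took 1.57% for Sham (95% Wilson interval 1.21 to 2.03), 1.17% for WI (0.907 to 1.51) and 0.480% for IR (0.308 to 0.749). For miR-30d this share came to 0.725% (Sham, 0.649 to 0.809), 0.882% (WI, 0.806 to 0.966) and 0.463% (IR, 0.403 to 0.532). In both hairpins the IR interval lay below those of Sham and WI. For miR-30a it was 1.88% (Sham), 1.81% (WI) and 1.88% (IR). For miR-30e it was 4.78%, 4.77% and 4.53%, and within each of these hairpins the 3 intervals overlapped. Put as whole ratios, IR held 207 reads of miR-30b-5p for each read of miR-30b-3p where Sham held 62.7, and 215 reads of miR-30d-5p for each of miR-30d-3p where Sham held 137.

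**Figure D3:**
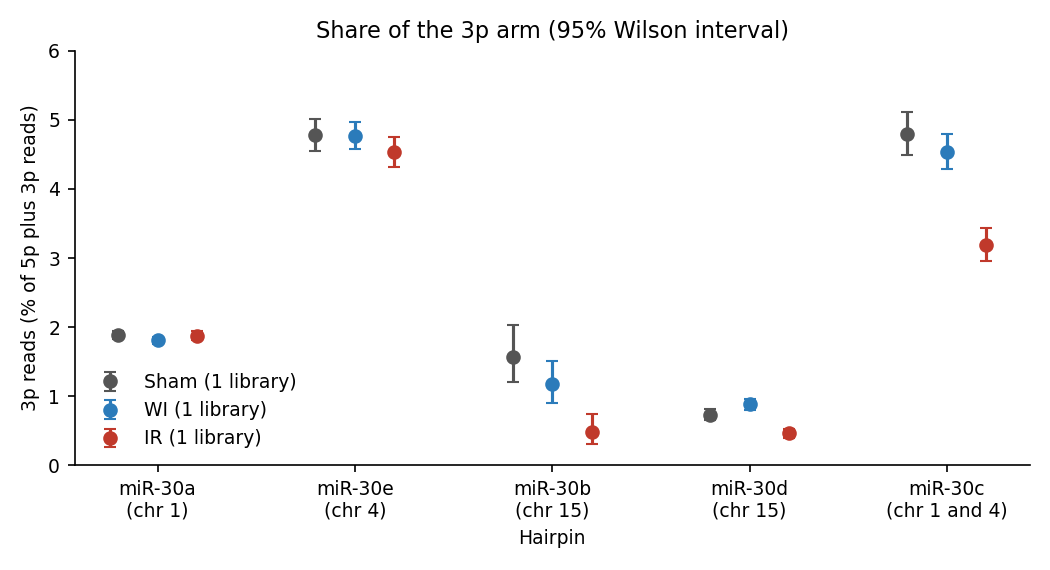
Share of 3p reads in the 5p plus 3p reads of each hairpin (y axis, percent) in the Sham, WI and IR libraries, with 95% Wilson intervals. IR is lowest for miR-30b (0.480%), miR-30d (0.463%), miR-30c with both 3p rows summed (3.19%) and miR-30e (4.53%, with overlapping intervals), while the shares of miR-30a stay between 1.81% and 1.88%.

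The change of the 3p to 5p ratio was tested over the hairpins whose 5p and 3p rows carry the same name and have at least 10 reads on each arm over the libraries compared. From WI to IR the ratio fell for miR-30d by 0.94 on the log2 scale (SE 0.12, Fisher's exact p = 4.24e-15, adjusted over all hairpins p = 2.35e-13) and for miR-30b by 1.30 (SE 0.38, Fisher's exact p = 0.000471, adjusted p = 0.00436). These were 2 of the 4 miR-30 hairpins, beside 6.31% of 111 hairpins called in either direction and 2.7% with a lower 3p to 5p ratio. From Sham to IR it fell for miR-30b by 1.72 (SE 0.38, Fisher's exact p = 1.96e-06) and for miR-30d by 0.65 (SE 0.13, Fisher's exact p = 6.12e-07), beside 3.6% of 111 hairpins called and 1.8% called lower. Neither miR-30a nor miR-30e was called, where the IR minus Sham changes were -0.01 (95% interval -0.07 to 0.06) and -0.08 (-0.18 to 0.03). From Sham to WI none of the 4 was called, beside 4.46% of 112 hairpins. There miR-30d gave 0.29 (SE 0.11, Fisher's exact p = 0.00739), which is a rise in the 3p share that did not reach the fold threshold, and miR-30b gave -0.43 (SE 0.27). With an assumed coefficient of variation of 0.2 on each count no miR-30 arm ratio passed (edgeR's likelihood ratio test, p between 0.0124 and 0.272 for the 4 calls). With 0.1 the IR against Sham change of miR-30d did not pass in that test, and with all libraries thinned to equal depth the change of miR-30b from WI to IR did not pass (-1.02, Fisher's exact p = 0.0141).

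Hairpins of the family were compared directly by the difference of their ratio changes, over 6 pairs in each comparison. From Sham to IR miR-30d minus miR-30e was -0.57 on the log2 scale (95% interval -0.85 to -0.29, counting error only), and miR-30a exceeded miR-30d by 0.64 (0.38 to 0.91). MiR-30a exceeded miR-30b by 1.72 (0.96 to 2.48). MiR-30a minus miR-30e was 0.07 (-0.05 to 0.20) from Sham to IR and 0.13 (0.01 to 0.24) from WI to IR, an interval that holds 0 in the former only. Within the chromosome 15 pair, miR-30b minus miR-30d was -1.07 (-1.87 to -0.28) from Sham to IR and -0.36 (-1.15 to 0.43) from WI to IR. The gap between miR-30b and miR-30d depended on the library they were compared with.

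**Figure D4:**
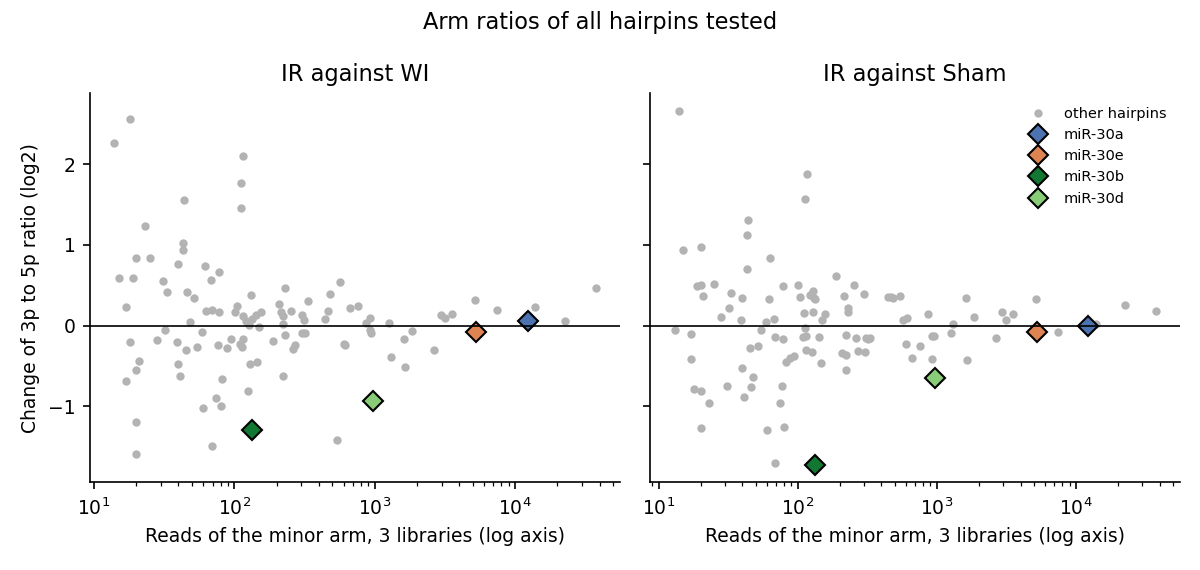
Change of the 3p to 5p ratio (y axis, log2) against the reads of the minor arm over the 3 libraries (x axis, log axis) for the 111 hairpins tested in IR against WI (left) and in IR against Sham (right). Grey points are hairpins outside the family and coloured diamonds are miR-30 hairpins. MiR-30d (-0.94 and -0.65) and miR-30b (-1.30 and -1.72) lie low, and miR-30a and miR-30e lie near 0.

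In all 4 miR-30 hairpins the 3p arm is the minor one. Read as minor against major arm, every call in IR was in the same direction. All 7 hairpins called from WI to IR lost reads on the minor arm relative to the major one, and so did all 4 called from Sham to IR, whichever arm was minor. From Sham to WI 1 of 5 called hairpins did so (0.893% of the 112 tested). For miR-27a (5p minor) and miR-455 (3p minor) the minor arm was instead called higher in WI, with 3p to 5p changes of -1.30 and 1.79. Their changes from WI to IR (1.46 and -1.42) went back from that, and neither was called from Sham to IR (0.15 and 0.37). The comparisons with IR share that library. Over all hairpins the median change of the minor to major ratio was -0.09 from WI to IR and -0.08 from Sham to IR, and the minor arm was lower in 58.6% and 53.2% of them. Likeness to miR-30d was measured on the change of the 3p to 5p ratio from Sham to WI and from Sham to IR. The nearest hairpins were miR-98 (0.20 and -0.46), miR-15b (0.07 and -0.55) and miR-501 (0.27 and -0.41). They were chosen by smallest distance from 105 hairpins over 3 libraries, and none of these 3 was called. In miR-501 the 3p arm is the major one (2240 reads against 17 on the minor arm). Its minor to major ratio thus changed the other way, with a rise from Sham to IR.

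The genomic places were compared by their shares of reads, leaving out miR-30c-5p. Of the 5p reads, miR-30a on chromosome 1 held 72.1% (Sham), 72.6% (WI) and 70.3% (IR). The chromosome 15 pair held 17.1%, 15.3% and 17.3%, and miR-30e on chromosome 4 held 10.9%, 12.1% and 12.4%. The chromosome 15 share of these guide reads was thus lowest in WI and the miR-30e share lowest in Sham. Among 3p reads the chromosome 15 pair held 6.58% for Sham (95% Wilson interval 5.96 to 7.25), 6.74% for WI (6.20 to 7.32) and 4.02% for IR (3.52 to 4.58), so its share of 3p reads was lowest in IR while its share of 5p reads was not. MiR-30e-3p held 26.4%, 29.0% and 29.2%, and miR-30a-3p 67.0%, 64.3% and 66.7%. Within the pair, miR-30b made up 7.52%, 8.62% and 8.54% of the 5p reads and 15.1%, 11.2% and 8.84% of the 3p reads in Sham, WI and IR, with 3p intervals of 11.8 to 19.1, 8.73 to 14.1 and 5.73 to 13.4 that overlapped.

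**Figure D5:**
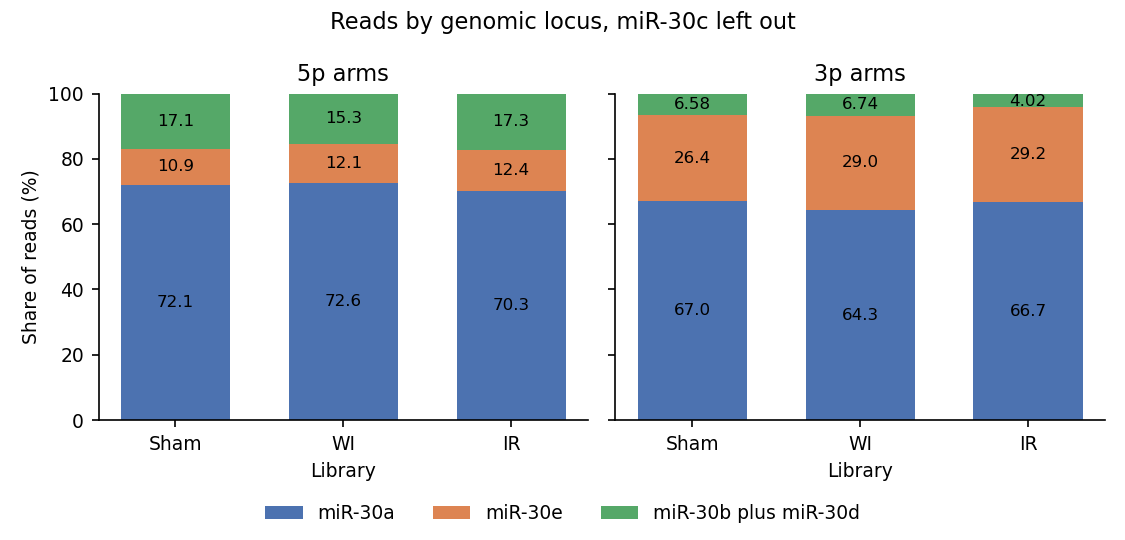
Share of reads (y axis, percent) of miR-30a (chromosome 1), miR-30e (chromosome 4) and miR-30b plus miR-30d (chromosome 15) in the Sham, WI and IR libraries, for 5p arms (left) and 3p arms (right), each bar adding to 100. The chromosome 15 share of 5p reads is 17.1, 15.3 and 17.3%, and that of 3p reads drops to 4.02% in IR.

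Within the guide pool the composition shifted by a few percentage points. MiR-30a-5p made up 67.7% of the summed 5p reads for Sham (95% Wilson interval 67.5 to 67.9), 68.0% for WI (67.8 to 68.1) and 65.1% for IR (65 to 65.3). MiR-30c-5p made up 6.08% (Sham), 6.38% (WI) and 7.31% (IR). MiR-30d-5p made up 14.8%, 13.1% and 14.7%, miR-30e-5p 10.2%, 11.3% and 11.5%, and miR-30b-5p 1.21%, 1.24% and 1.37%.

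The hairpins of miR-30c give 3p arms that are not among the 9 members and carry another seed. They are shown because they add a chromosome 1 and a chromosome 4 passenger arm, with the seed in capitals.
miR-30c-1-3p: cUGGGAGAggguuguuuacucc
miR-30c-2-3p: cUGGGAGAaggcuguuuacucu
They share the seed UGGGAGA and differ by G9A, U12C and C22U. MiR-30c-1-3p, from the hairpin next to miR-30e, was read 146 times (Sham), 256 times (WI) and 94 times (IR). From Sham to WI it rose by 0.51 on the log2 scale (SE 0.15, Fisher's exact p = 0.000532), short of the fold threshold. It fell from WI to IR by 1.09 (SE 0.17, Fisher's exact p = 4.64e-11). From Sham to IR it was not called (log2 fold change -0.58, SE 0.19, p = 0.00234 by Fisher's exact test), with a fold of 1.498 just under the threshold of 1.5. MiR-30c-2-3p, from the hairpin next to miR-30a, had 745, 943 and 597 reads and was not called, with -0.31 (SE 0.08) from WI to IR and -0.27 (SE 0.08) from Sham to IR. With both rows summed, the 3p arms took 4.8% of all miR-30c reads for Sham (95% Wilson interval 4.5 to 5.11), 4.54% for WI (4.29 to 4.79) and 3.19% for IR (2.96 to 3.43). The 3p to 5p ratio of miR-30c thus changed by -0.61 on the log2 scale between Sham and IR (95% interval -0.76 to -0.47, not tested over all hairpins), with miR-30c-5p higher and both 3p rows lower. Its chromosome 4 neighbour miR-30e-3p was not called in either comparison, with -0.17 (SE 0.05) from WI to IR and 0.12 (SE 0.05) from Sham to IR.

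The table also lists miR-30f, which RefSeq places on the strand opposite Mir30e, with 0, 1 and 0 reads in Sham, WI and IR. By the distance between pairs of log2 fold changes from Sham, the microRNAs with at least 100 reads in every library most like the summed 5p members were miR-1843a-5p, miR-141-3p, miR-221-3p, miR-484 and miR-125b-2-3p. Their log2 fold changes lay between 0.11 and 0.15 in WI and between -0.01 and 0.07 in IR. Those most like the summed 3p members were miR-484, miR-28a-3p, let-7b-5p, miR-1843a-5p and miR-221-3p. Both choices were made from 179 microRNAs over 3 libraries.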

How the data were processed

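The authors deposited unscaled read counts, 1 value for each mature microRNA and 1 small RNA library for each group. They removed adaptors, selected reads by length, aligned them to mouse mm9 with Bowtie 0.12.7 (the submitters' processing notes list mm10 with no role), and counted microRNAs with miRDeep2. No molecular identifiers are mentioned, so PCR copies may count as reads. Groups came from sample titles. Members, marker lists and tests were chosen with earlier results of these data known. Named beside the members are other miR-30 rows, 7 marker lists, and the microRNAs (5 per summed arm) and hairpins (3) nearest in fold changes.

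Counts were scaled by TMM factors (1.03, 0.961 and 1.01 in Sham, WI and IR) from edgeR 4.0.16. Log2 fold changes used log2(CPM + 0.1), which understates changes of scarce microRNAs. Fisher's exact test (scipy 1.17.1, two-sided) ran on every microRNA with at least 1 read, and for arm ratios on every hairpin with at least 10 reads on each arm over both libraries. Calls needed a fold above 1.5 and p under 0.01, the thresholds of the study. Benjamini-Hochberg adjustment ran over all features tested. A zero count allows up to 3 reads. Without replicates the quasi-likelihood test of edgeR could not be fitted. The calling steps were tested on simulated counts with planted changes and counting error only. That test covered neither TMM scaling nor variation between animals.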

Additional observations from a re-analysis of the deposited data

How the results depend on the processing

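No paired analysis was possible because each group has 1 library, and no replicate could be left out for the same reason. Across 14 alternatives for levels, 0 members were called in WI against Sham, and the 2 calls of IR against WI held in 10 and the 2 of IR against Sham in 11. A fold above 2 left 1 call in each. Thinning to equal depth left 1 in IR against WI. With a coefficient of variation set to 0.2 in the exact test of edgeR the counts were 0 and 1, and with 0.4 both were 0. For arm ratios, a ratio above 2 left 1 call in each of these comparisons, thinning left 1 in IR against WI, and edgeR's likelihood ratio test gave 1 in IR against Sham at 0.1 and 0 in both at 0.2. No called member changed sign. Some of the 14 settings for levels could not remove these calls, so the 10 and 11 overstate how far they were put to a test. These settings were p under 0.05, adjusted p under 0.05, at least 10 reads and no pseudocount.

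Small 5p differences followed the scaling. Listed for WI over Sham, IR over WI and IR over Sham, the summed 5p arms gave 0.10, -0.098 and 0.0033 with DESeq2 1.42.0 size factors, 0.045, -0.044 and 0.0016 with unscaled library sizes, 0.064, -0.098 and -0.035 after removal of the 10 most abundant microRNAs, and 0.30, -0.44 and -0.14 with genome-aligned totals. The summed 3p arms gave 0.055 and -0.11 with library sizes in the first 2, 0.073 and -0.090 in the first and last after that removal, and 0.31, -0.50 and -0.19 with genome-aligned totals. Genome-aligned totals moved the median of all tested microRNAs to 0.20, -0.32 and -0.09. With them miR-30d-5p turned to 0.13 in WI against Sham, miR-30b-5p, miR-30c-5p and miR-30d-5p to -0.29, -0.24 and -0.28 in IR against WI, and miR-30d-5p and miR-30e-3p to -0.15 and -0.045 in IR against Sham. MiR-30a-3p turned to -0.0061 in WI against Sham with library totals. MiR-30d-5p in IR against Sham turned to -0.0099 (DESeq2), -0.012 (totals) and -0.048 (the 10 most abundant left out). None of these had been called. Of 378 recomputed values of single members 358 kept direction and call, 10 lost a call and 10 changed sign. Settings that altered only the read minimum, the thresholds or the test left the fold change as it was, so no sign could change there. Shares under thinning stayed within their intervals. Chosen after seeing the data, the arm ratio summed over the 4 hairpins changed from Sham to IR by -0.04, by -0.11 without miR-30a and by -0.02 without miR-30b.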
